A study of Arabidopsis with 24 samples.

Results

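SMALL AUXIN UP RNA (SAUR) genes encode a large plant family of short proteins whose transcripts rise soon after auxin is supplied. The best studied SAUR proteins bind and inhibit PP2C.D phosphatases at the plasma membrane. The phosphatases otherwise remove an activating phosphate from the plasma membrane proton pumps (AHA), so that SAUR proteins are linked to acidification of the cell wall and to cell expansion. Low red to far-red light (low R:FR), the signal of neighbouring plants, raises auxin in seedlings through PHYTOCHROME INTERACTING FACTORs, above all PIF7 with PIF4 and PIF5. SAUR genes are therefore a common readout of the shade avoidance response.

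The genes described here are the 48 loci, of 32833 in the deposited expression values, that carry a SAUR gene name followed by a number or the word SAUR in their description. All 48 were protein-coding in RefSeq. The deposited values name 25 of them, and the SAUR name of the other 23 was taken from RefSeq. A mean FPKM (fragments scaled by transcript length and library size) of at least 0.5 over all 24 libraries was reached by 39 members, and these were tested. The values came from whole seedlings of 4 genotypes, all in the Col-0 background. dvl1-1D is an activation-tagged line with a T-DNA in the RTFL18 promoter that overexpresses RTFL18, which encodes a small peptide of the DEVIL family. bsk36 carries T-DNA insertions in the BRASSINOSTEROID SIGNALING KINASE genes BSK3 and BSK6. pif47 is mutated in PIF4 and PIF7, and Col-0 was the wild type. Seedlings were grown for 6 days in white light (WL) and then received low R:FR (R/FR of 0.3) for 6 h or stayed in WL. There were 3 replicates in each of 8 groups. The labels do not say whether these came from separate cultures, so p-values measure the spread between these samples, which may be technical. In whole seedlings, fewer cells of a type and less RNA per cell cannot be told apart.

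Expression of the genes altered in the mutants and of general markers was checked first. RTFL18 had 788 to 975 FPKM in dvl1-1D in low R:FR and 517 to 618 in WL, against 11.1 to 12.9 and 0 to 0.7 FPKM in Col-0. BSK3 was at or below 0.03 FPKM in bsk36, against at least 22.3 FPKM in Col-0, and BSK6 was at 0.3 to 0.75 FPKM, against at least 9.49. PIF7 had 0.53 to 1.34 FPKM in pif47, against 9.83 to 13.5 in Col-0, and PIF4 had 7.67 to 8.05 FPKM in low R:FR and 1.64 to 2.34 in WL, against 22.1 to 26.5 and 6.68 to 7.46. The shade marker PIL1 stood at 27.9 to 35.1 FPKM in every low R:FR library of the 4 genotypes and at 0.35 to 0.89 FPKM in every WL library. Markers of green shoot (3 of 3), root (4 of 4) and shoot meristem (1 of 2, STM) were detected in every library. The other meristem marker, WUS, had 0 to 0.16 FPKM and was not tested. The flower and pollen list summed to at most 0.43 FPKM. Library totals ranged over 758368 to 801109 FPKM. Steps between the lowest values of 112 genes gave relative depths of 0.821 to 1.22.

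Levels differed widely within the family. Across the 24 libraries SAUR6 (72.0 FPKM) and SAUR78 (67.1 FPKM) had the highest means, followed by SAUR50 (33.1), SAUR32 (29.1), SAUR63 (25.5), SAUR20 (20.7) and SAUR62 (20.6). FPKM is scaled by transcript length, so these levels can be compared between genes. The lowest tested members, SAUR58 (0.566 FPKM) and SAUR45 (0.555 FPKM), lay just above the limit. SAUR17 (0.475), SAUR70 (0.442) and SAUR35 (0.358 FPKM) lay just below it. SAUR75, SAUR18, SAUR43 and SAUR40 averaged 0.106 to 0.0271 FPKM, and SAUR47 and SAUR2 were listed at 0 in every library. SAUR68 and SAUR58 passed the limit through their low R:FR libraries, since their WL means were 0.126 and 0.473 FPKM. The FPKM of all 48 members together summed to 555 to 573 in dvl1-1D in low R:FR and 343 to 345 in WL. The sums were 471 to 546 in low R:FR and 300.5 to 326 in WL in bsk36, and 350.3 to 386 in low R:FR and 284 to 309 in WL for pif47. In Col-0 they were 574 to 587 in low R:FR and 337 to 374 in WL. In every genotype the low R:FR and WL libraries did not overlap, and the gap was smallest in pif47.

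The first comparison asked which members responded to low R:FR in Col-0. Genes that differed by 1 or more log2 units in either direction, on log2(FPKM + 0.1), with an unadjusted limma P no higher than 0.01, were called. Low R:FR raised 15 of the 39 tested members in Col-0 and lowered none, while 2.16% of all 20682 tested genes were called higher and 1.32% lower. The members had a median log2 fold change of 1.02, against 0.06 for all tested genes. The 3 low R:FR libraries lay above the 3 WL libraries for 25 of 39 members, against 24.5% of all genes, and below them for none of the 39, against 18.4%. An unadjusted P under 0.05 was found for 22 of the 39 members, or 56.4%, against 45.0% of all tested genes. SAUR68, among the 15, passed the expression limit only through its low R:FR libraries and so had to differ. Between the same groups the summed FPKM of the 4 root markers was 936 to 1371 in low R:FR and 1752 to 1951 in WL in Col-0, nearly all of it BGLU23, while the other 3 root markers had positive differences, and none of the 4 was called. In dvl1-1D this sum was 1348 to 1525 in low R:FR and 1626 to 1831 in WL, and in bsk36 (1138 to 1464 in low R:FR, 1441 to 1463 in WL) and pif47 (1610 to 1710 in low R:FR, 1667 to 1933 in WL) the lights overlapped. Its part in the light effect was not tested.

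The SAUR19 subfamily, SAUR19 to SAUR24, gave 6 of these 15 calls. These genes lie in 1 array on chromosome 5, with other genes between some of them, and their proteins are known to promote hypocotyl and leaf cell expansion and to inhibit PP2C.D phosphatases. Their coding sequences are near-identical, so reads could be divided among them in ways the values do not show. SAUR22 had 24.4, 25.0 and 26.9 FPKM in Col-0 in low R:FR, against 1.28, 0.53 and 1.44 FPKM in WL. SAUR20 had 43.0, 37.7 and 43.0 FPKM in low R:FR, against 6.62, 6.29 and 8.47 in WL. The low R:FR libraries were several-fold above the WL libraries in both genes, with no overlap.

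The log2 fold change was 4.53 ± 0.44 (SE) for SAUR22, 4.07 ± 0.49 for SAUR19, 3.63 ± 0.20 for SAUR23, 3.05 ± 0.17 for SAUR21, 2.53 ± 0.13 for SAUR20 and 2.51 ± 0.31 for SAUR24. The limma adjusted p (Benjamini-Hochberg over all 20682 genes) was at most 3.22e-06 for each of the 6. The order of the 6 levels changed with light. SAUR20 held 26.6% to 29.5% of the summed FPKM of the 6 genes in Col-0 in low R:FR and 37.5% to 40.6% in WL, while SAUR22 held 16.7% to 17.6% in low R:FR and 3.38% to 7.25% in WL. Summed over the 6 genes, which depends little on how reads were divided among them, the values were 146, 142 and 161 FPKM in low R:FR, against 17.7, 15.7 and 20.9 FPKM in WL. This was an 8.29-fold difference (log2 fold change 3.05, 95% interval 2.84 to 3.27).

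**Figure D1:**
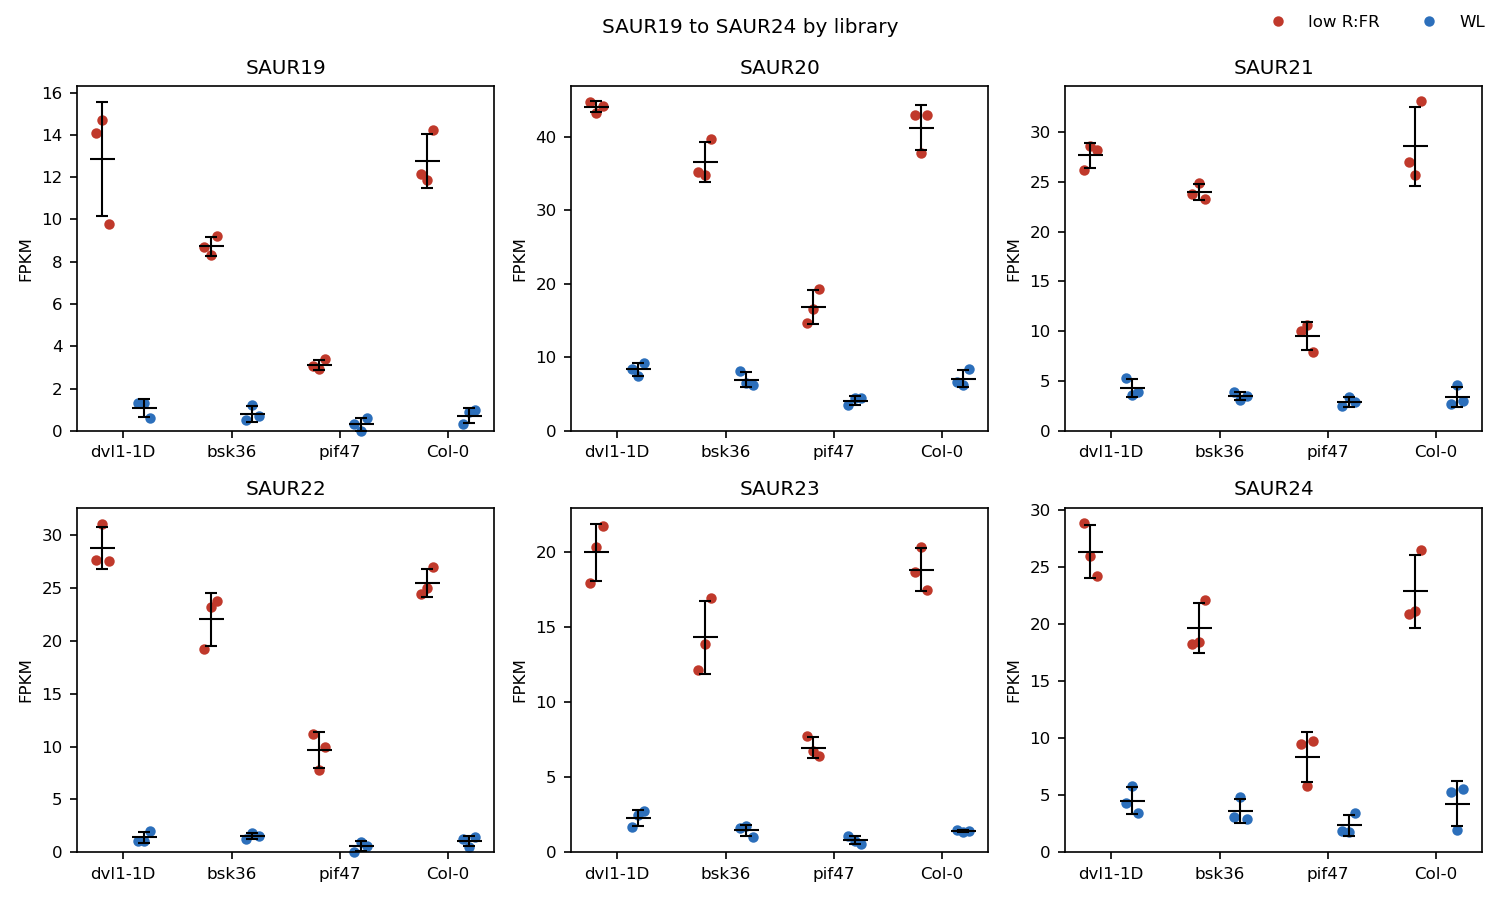
FPKM of SAUR19 to SAUR24 in each library of dvl1-1D, bsk36, pif47 and Col-0, with low R:FR in red to the left of WL in blue; the black bar is the mean and the whisker the SD of 3 replicates. In all 4 genotypes the low R:FR points lie above the WL points, and in pif47 the low R:FR points of SAUR21 (7.95 to 10.6 FPKM) lie below those of Col-0 (25.7 to 33.1 FPKM).

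Of the SAUR63 subfamily, known from hypocotyl, petal and stamen filament elongation, 8 members, SAUR61 to SAUR68, lie in 1 array on chromosome 1 that also holds other genes. Low R:FR raised 4 of the 8. SAUR63 had 42.1, 41.7 and 40.0 FPKM in low R:FR, against 18.0, 19.1 and 18.0 FPKM in WL (log2 fold change 1.16 ± 0.10). SAUR65 had 8.86, 11.9 and 10.2 FPKM, against 3.68, 3.03 and 2.74 (1.68 ± 0.23). SAUR66 had 19.5, 17.1 and 18.2 FPKM, against 7.37, 9.21 and 7.91 (1.16 ± 0.18). These 3 genes were over 2 times higher in low R:FR, with no overlap. SAUR68 had 3.97, 2.79 and 2.85 FPKM in low R:FR, against 0, 0 and 0.3 FPKM in WL, so that its log2 fold change of 4.36 ± 0.64 depends on the added 0.1. SAUR64 (0.90 ± 0.14), SAUR67 (0.46 ± 0.15) and SAUR62 (0.31 ± 0.11) had P at or below 0.0084 and fold changes under 2. SAUR61 differed by 1.80 ± 0.66 (limma adjusted p = 0.0375), but its unadjusted P was above the limit for a call. The deposited values give the name SAUR67 to AT1G29510 and SAUR68 to AT1G29490, while RefSeq calls AT1G29510 SAUR68.

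Of the members elsewhere in the genome, SAUR10, SAUR28, SAUR1, SAUR71 and SAUR15 were raised in Col-0. SAUR10, whose overexpression is known to increase organ growth, had 4.32, 5.21 and 4.39 FPKM in low R:FR, against 0.7, 0.37 and 0.82 in WL (2.75 ± 0.56). SAUR28, of a subfamily known from variation in rosette growth with temperature, had 3.61, 3.95 and 5.61 FPKM, against 1.57, 0.87 and 0.6 (2.08 ± 0.53). SAUR1 had 8.74, 8.42 and 11.8 FPKM, against 1.58, 2.12 and 3.49 (2.02 ± 0.29). None of these low R:FR values overlapped its WL values. SAUR71, one of the SAUR41 subfamily, had 8.96, 6.96 and 8.27 FPKM in low R:FR, against 2.98, 2.92 and 2.64 (1.46 ± 0.18). SAUR15, the auxin-induced gene first known as SAUR-AC1, had 5.53, 4.29 and 4.95 FPKM, against 2.86, 1.67 and 2.75 (1.02 ± 0.30). Its call was at the edge of the threshold. The log2 fold change of SAUR15 was 0.78 without Col-0 WL replicate 2 and 0.94 without Col-0 low R:FR replicate 1, and 0.80 to 0.98 with a larger pseudocount or another scaling, all below 1.

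The 4 members with the highest means over the 24 libraries were not among the responders, whereas SAUR63 and SAUR20, ranked 5 and 6, were. SAUR6 had 94.3, 83.8 and 83.8 FPKM in low R:FR, against 79.2, 88.6 and 92.1 in WL (log2 fold change 0.01 ± 0.08). SAUR78 had 71.1, 73.4 and 60.7 FPKM, against 67.2, 71.3 and 76.4 (−0.07 ± 0.12). SAUR50 (0.09 ± 0.11) and SAUR32 (0.02 ± 0.08) also had overlapping groups. SAUR50 is known to be induced by light in cotyledons of dark-grown seedlings. SAUR36, known from leaf senescence, differed by 0.29 ± 0.16, SAUR72 by −0.19 ± 0.12, SAUR41 by 0.02 ± 0.19, SAUR76 by 0.61 ± 0.37 and SAUR77 by 0.26 ± 0.29, and none of these was called. SAUR13 had 8.95, 9.27 and 7.64 FPKM in low R:FR, against 1.58, 1.8 and 3.61 in WL. The Col-0 groups of SAUR13 did not overlap, but the shared spread of this gene was wide (1.93 ± 0.95, limma adjusted p = 0.121), since 3 libraries of bsk36 and pif47 were at 0. SAUR13 overlaps AT4G38820 in RefSeq, as 5 of the 39 tested members overlap another gene (also SAUR6, SAUR61, SAUR63 and SAUR64), and whether strand was used in counting is not given in the sources used here.

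**Figure D2:**
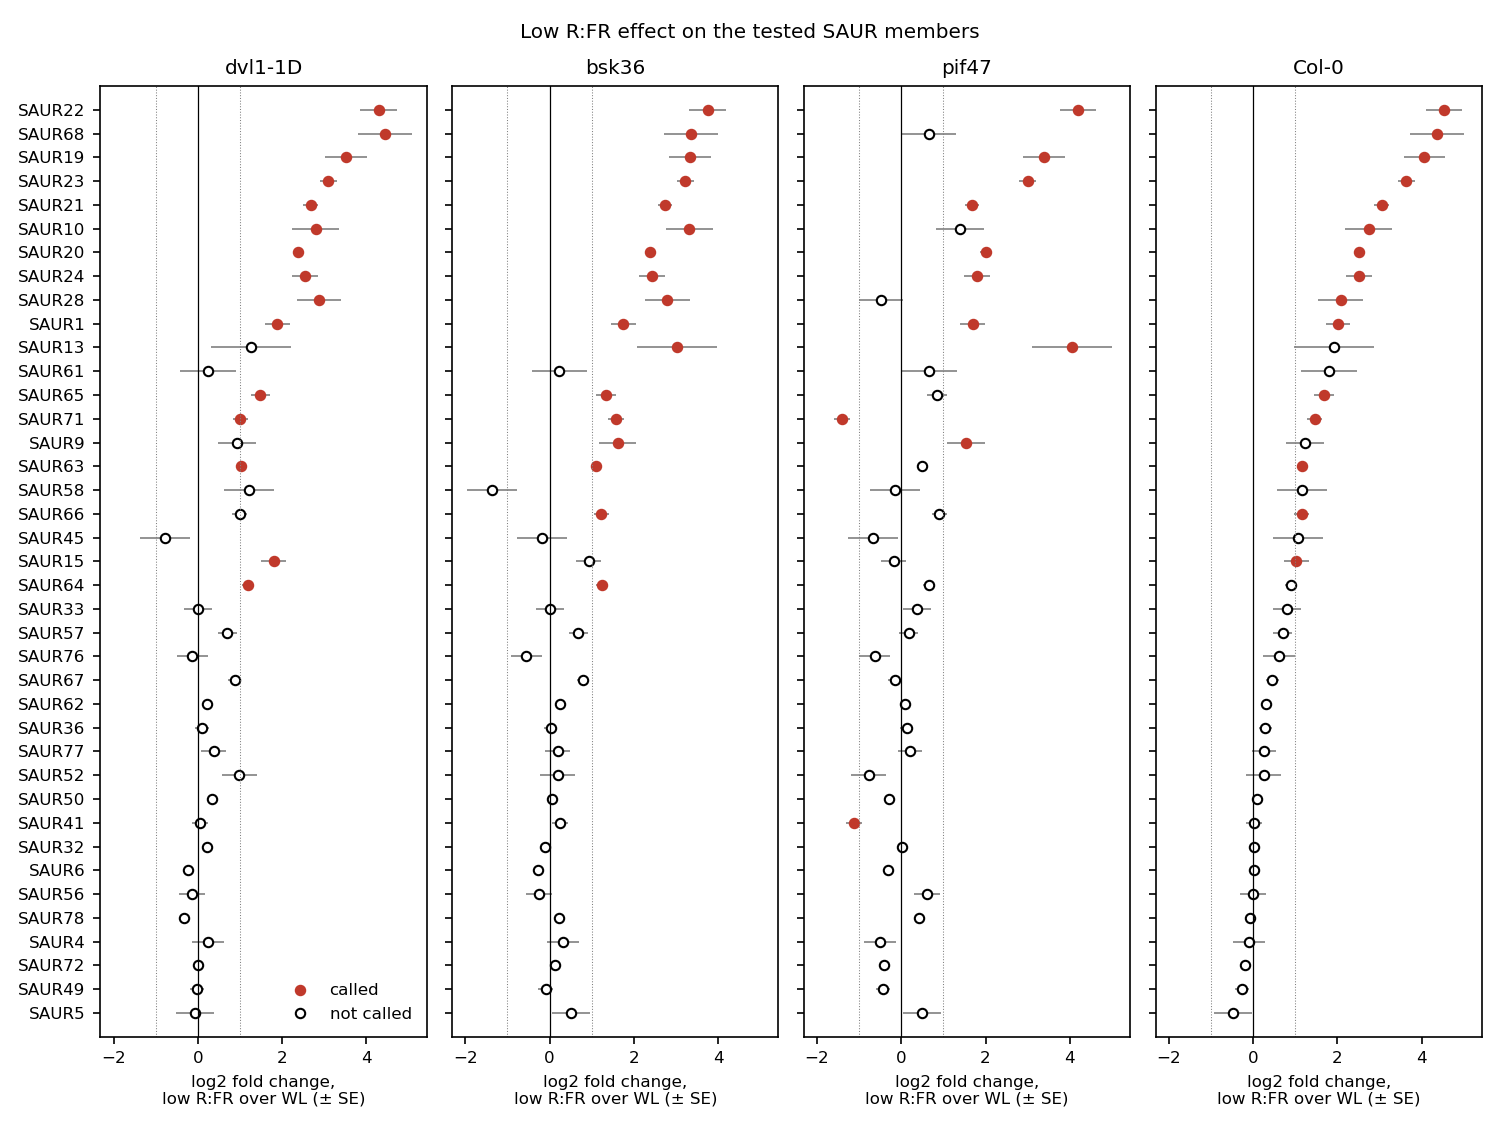
Log2 fold change of low R:FR over WL for the 39 tested SAUR members (rows) in dvl1-1D, bsk36, pif47 and Col-0; points are limma estimates on log2(FPKM + 0.1), whiskers are SE, and filled red points passed the call (1 or more log2 units from 0, dotted lines, with P no higher than 0.01). Rows are ordered by Col-0, where 15 points are filled; right of 0, dvl1-1D has 15 filled points, bsk36 has 17 and pif47 has 9, and in pif47 SAUR71 and SAUR41 are filled to the left.

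Many SAUR genes stand in tandem, and the arrays behaved differently from each other. With up to 3 other genes allowed between neighbours, RefSeq gene order (TAIR10.1) gave 9 arrays, counting also SAUR genes that only RefSeq names. In Col-0, low R:FR raised 13 of the 25 tested members inside arrays and 2 of the 14 outside, against 2.16% of all tested genes. Of the 13, 6 came from the array of the near-identical SAUR19 to SAUR24 and 4 from that of SAUR61 to SAUR68. Members of an array are thus not independent, and a link of array position to the response was not tested. Of the non-SAUR genes lying within arrays, 1 of 8 was raised. In the chromosome 5 array all 6 SAUR genes were raised, while AT5G18040 (log2 fold change 0.13 ± 0.14), AT5G18065 (0.33 ± 0.20) and AT5G18070 (−0.07 ± 0.14), which stand between them, were not called. In the chromosome 1 array AT1G29465, next to SAUR65, was raised (1.04 ± 0.24) and AT1G29470 was not (0.10 ± 0.04).

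A chromosome 4 array held 6 tested SAUR genes, of which SAUR1 alone was raised. Its neighbours SAUR50 (0.09 ± 0.11), SAUR49 (−0.27 ± 0.17), SAUR3 (−0.26 ± 0.21), SAUR4 (−0.10 ± 0.38) and SAUR5 (−0.47 ± 0.45) were not called. The other chromosome 4 array held, in order, SAUR13 (1.93 ± 0.95, not called), SAUR14, SAUR15 (1.02 ± 0.30, raised) and SAUR16. Of these, SAUR14 differed in sign from the rest. SAUR14 had 35.6, 35.1 and 40.1 FPKM in low R:FR, against 60.3, 56.8 and 51.1 in WL (−0.60 ± 0.10), whereas SAUR16 had 56.4, 51.3 and 62.1 FPKM, against 32.6, 31.6 and 31.0 (0.83 ± 0.10). Neither reached the fold change needed for a call, but the groups of both genes did not overlap (limma adjusted p = 6.04e-05 for SAUR14 and 2.82e-06 for SAUR16). Both are known, with SAUR50, as light-induced SAUR genes of cotyledons, and both are named SAUR by RefSeq only and are not among the 48 members.

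**Figure D3:**
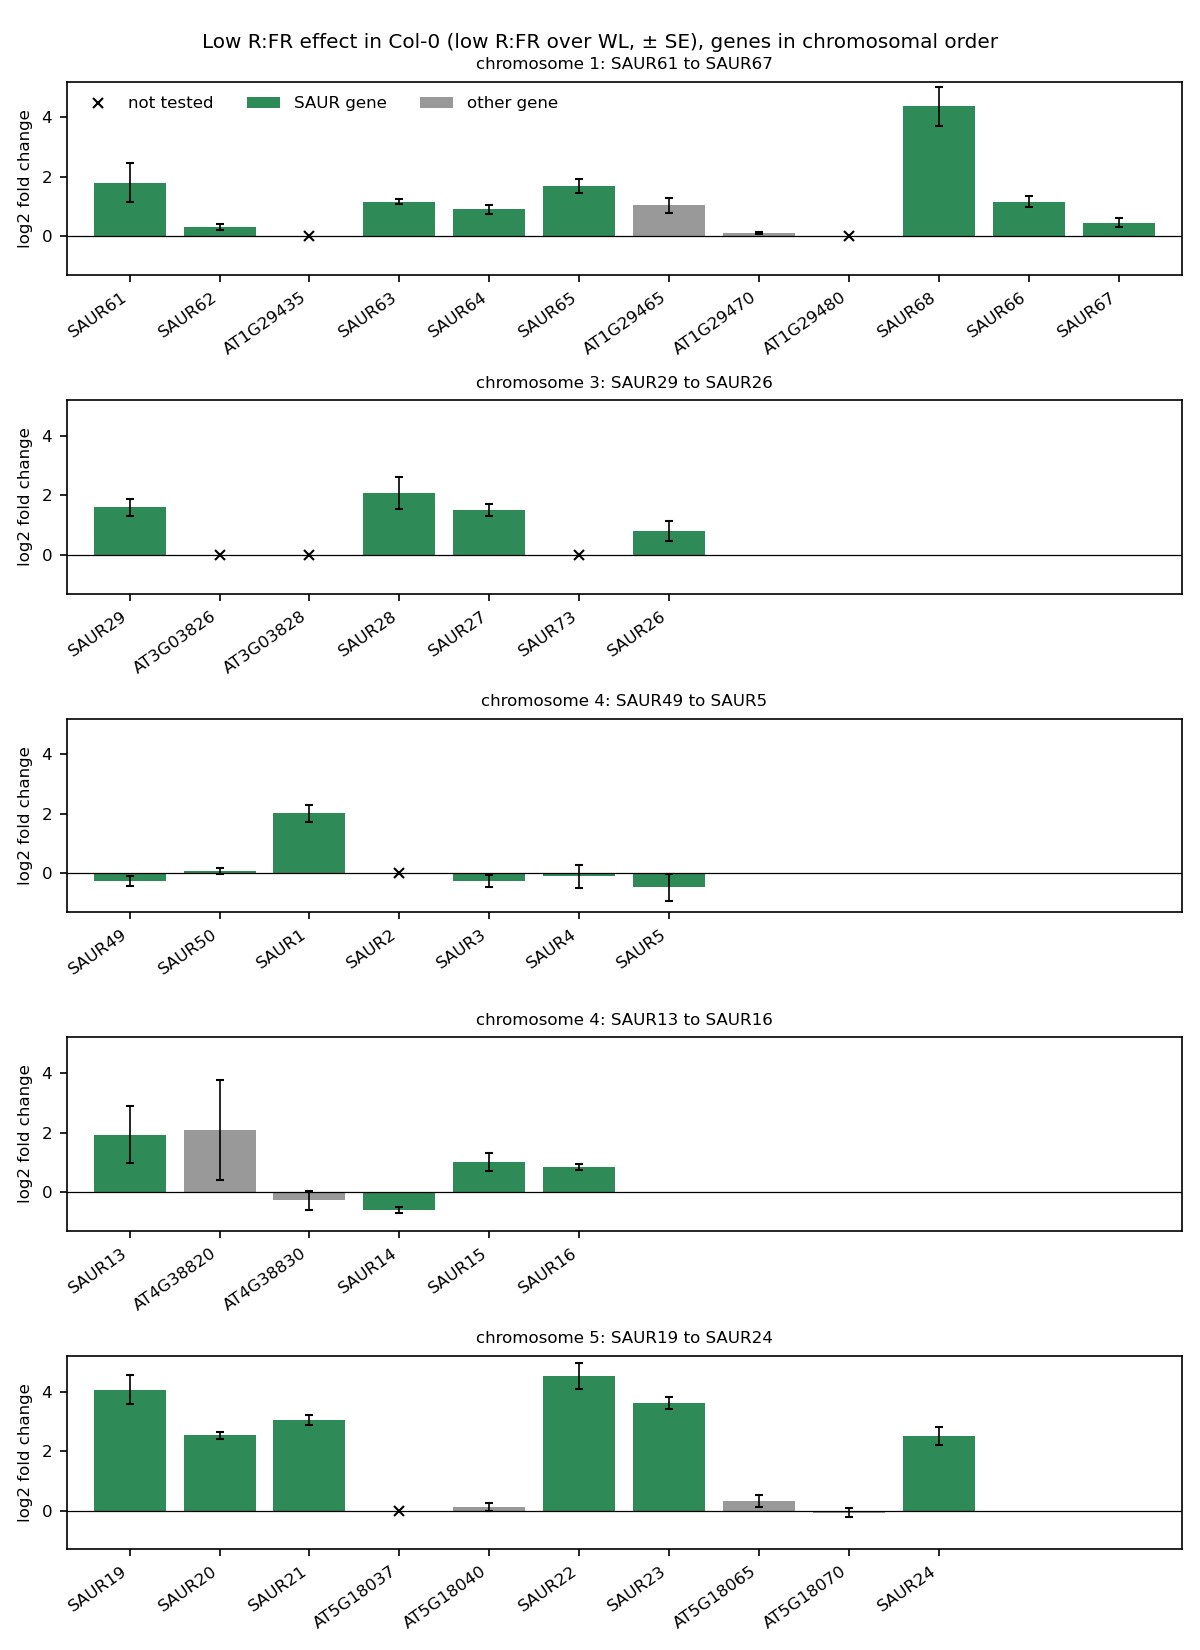
Log2 fold change of low R:FR over WL in Col-0 (bars, ± SE) for genes of the 5 tandem arrays with 4 or more SAUR genes, in chromosomal order (spacing not to scale); green bars are SAUR genes, grey bars other genes, and crosses genes not tested. SAUR19 to SAUR24 rise to between 2.51 and 4.53 around grey bars near 0, whereas in the array from SAUR49 to SAUR5 only SAUR1 (2.02) stands out.

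The next comparison asked whether overexpression of RTFL18 or loss of BSK3 and BSK6 altered the response of these genes. Low R:FR raised 15 of 39 members in dvl1-1D and 17 of 39 in bsk36 and lowered none in either, against 1.32% and 1.30% of all tested genes called higher and 0.450% and 0.701% called lower. The median log2 fold change of the members was 0.94 in dvl1-1D and 0.69 in bsk36, against 0.03 and −0.01 for all tested genes. Of the 15 members raised in Col-0, 14 were also called in dvl1-1D and 14 in bsk36. These shared members are 93.3% of the Col-0 members in both mutants, 93.3% of the dvl1-1D members and 82.4% of the bsk36 members. For the 432 other genes raised in Col-0, the shares also called were 42.1% in dvl1-1D and 41.4% in bsk36. The 15 members had larger fold changes in Col-0 (median 2.51) than these other genes (1.35), so they lay farther from the threshold. In the mutants their medians were 2.54 in dvl1-1D and 2.43 in bsk36, against 0.91 and 0.90 for the other genes. The comparisons of the 3 mutants share the Col-0 libraries.

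The genotype by light interaction, which tests the difference in the low R:FR effect between a mutant and Col-0, was called at a limma adjusted p under 0.05. It was called for none of the 39 members in dvl1-1D and none in bsk36, against 2.34% and 3.03% of all tested genes. At an unadjusted P under 0.05 there were 2 members (5.13%) in dvl1-1D and 3 (7.69%) in bsk36, against 18.4% and 19.4% of all tested genes. The precision differed between members. The 95% interval of the interaction lay within 1 log2 unit on both sides of 0 for 21 of 39 members in dvl1-1D and 19 of 39 in bsk36, and was wider for the rest. For SAUR63 it was −0.42 to 0.15 in dvl1-1D and −0.34 to 0.23 in bsk36. For SAUR20 it was −0.51 to 0.24 and −0.52 to 0.24, and for SAUR22, whose WL values are low, −1.52 to 1.06 and −2.06 to 0.51.

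The summed FPKM of SAUR19 to SAUR24 were compared in the same way. In dvl1-1D the sums were 160, 164 and 156 FPKM in low R:FR, against 22.2, 21.8 and 22.0 in WL, a 7.23-fold difference. In bsk36 they were 117, 124 and 135 FPKM in low R:FR, against 18.6, 19.3 and 16.0 in WL, a 6.96-fold difference. The interaction of the sum was −0.20 (95% interval −0.50 to 0.11) in dvl1-1D and −0.25 (−0.56 to 0.05) in bsk36. In WL the 3 dvl1-1D sums lay above the 3 of Col-0 (15.7 to 20.9 FPKM, log2 difference 0.29, 95% interval 0.08 to 0.51). The dvl1-1D sums in low R:FR overlapped those of Col-0 (142 to 161 FPKM), and the 3 bsk36 sums lay below them (log2 difference −0.26, 95% interval −0.47 to −0.04).

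SAUR64, SAUR9 and SAUR13 were called in dvl1-1D or bsk36 but not in Col-0. SAUR64 was raised in dvl1-1D (1.18 ± 0.14) and bsk36 (1.23 ± 0.14) and differed by 0.90 ± 0.14 in Col-0. SAUR9, whose protein is known to inhibit PP2C.D phosphatases, was raised in bsk36 (1.62 ± 0.45) and differed by 1.23 ± 0.45 in Col-0 (limma adjusted p = 0.037, not called by its unadjusted P). With a pseudocount of 1 the value of SAUR9 in bsk36 was 0.82, below the call. SAUR13 was raised in bsk36 (3.02 ± 0.95), a call that was lost without bsk36 WL replicate 3, a library at 0 (log2 fold change 1.45), and without bsk36 low R:FR replicates 1 or 3 (2.82 and 2.83). In dvl1-1D SAUR15 was raised by 1.80 ± 0.30, with 5.32, 5.84 and 3.94 FPKM in low R:FR against 1.85, 1.66 and 0.79 in WL. SAUR71 (1.01 ± 0.18) and SAUR63 (1.03 ± 0.10) were at the edge of the call in dvl1-1D. The log2 fold change of SAUR71 was 0.95 and 0.97 without dvl1-1D WL or low R:FR replicate 1, and that of SAUR63 was 0.93 without dvl1-1D WL replicate 2.

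Levels in dvl1-1D and bsk36 were also set against Col-0 in the same light (adjusted p under 0.05 and a difference of 2-fold or more). No member was called in either mutant in either light (limma). At an unadjusted P under 0.05 there were 5 members in dvl1-1D in low R:FR and 9 in WL, and 3 and 7 in bsk36. These are 12.8% and 23.1% of the members in dvl1-1D and 7.69% and 17.9% in bsk36, against 24.6% and 20.1% of all tested genes in dvl1-1D and 15.1% and 32.6% in bsk36. Over all genes, 0.759% and 0.648% were called in dvl1-1D in low R:FR and WL, and 0.343% and 1.09% in bsk36. The count for dvl1-1D in WL was 1 without dvl1-1D WL replicate 1. In low R:FR 33 of the 39 members had a negative difference in bsk36, against 8401 of all 20682 tested genes (median −0.17, against 0.04 for all tested genes). All bsk36 values lay below those of Col-0 for 9 members and above them for none, against 5.64% and 11.1% of all tested genes. For dvl1-1D these were 6 below and 5 above, against 11.8% and 15.6%, with a median of 0.08.

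SAUR6, the most abundant member, was lower in all 3 mutants in low R:FR by less than 2-fold. The dvl1-1D libraries had 57.6, 60.1 and 63.1 FPKM, the bsk36 libraries 60.6, 60.2 and 67.7 and the pif47 libraries 52.6, 58.6 and 66.0, against 94.3, 83.8 and 83.8 in Col-0. All low R:FR values of the mutants lay below those of Col-0. The log2 difference was −0.57 ± 0.08 (limma adjusted p = 9.01e-05) for pif47. It was −0.53 ± 0.08 (limma adjusted p = 0.000514) for dvl1-1D and −0.47 ± 0.08 (limma adjusted p = 0.00404) for bsk36. The Col-0 values in WL were 79.2 to 92.1 FPKM. Those of pif47 (66.5 to 77.0 FPKM) and dvl1-1D (69.8 to 71.9 FPKM) lay below all of these. The WL values of bsk36 (69.5 to 82.6 FPKM) overlapped those of Col-0. The lower level was thus not limited to low R:FR for pif47 and dvl1-1D.

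The third comparison asked how the response depended on PIF4 and PIF7. In pif47 low R:FR raised 9 of 39 members and lowered 2, against 0.701% of all tested genes called higher and 0.392% lower. The raised members were SAUR19 to SAUR24, SAUR1, SAUR9 and SAUR13. The median log2 fold change of the members was 0.37 in pif47, against 0.03 for all genes. Of the 15 members raised in Col-0, 7 were also called in pif47 (46.7% of the Col-0 members and 77.8% of the pif47 members), against 16.9% of the 432 other genes raised in Col-0. These 7 were SAUR1 and the near-identical SAUR19 to SAUR24, which share an array and are not independent. The 15 members also lay farther from the threshold in Col-0 (median 2.51, against 1.35 for the other genes). In pif47 these medians were 1.39 and 0.53. Over the 39 members the interaction was called for 5, all negative, against 1.68% of all tested genes called negative and 2.44% in either direction. Among the genes raised in Col-0 it was called for 4 of the 15 members (26.7%), against 148 of the 432 others (34.3%). The median interaction was −0.72 for these members and −0.83 for the others, so the members were not more affected. Over all 39 members the interaction was negative for 33, against 11419 of all 20682 genes. An unadjusted P under 0.05 was found for 15 members (38.5%), against 3092 of all 20682 genes. The count of 5 became 3 without any one of Col-0 WL replicate 2, Col-0 low R:FR replicate 2, pif47 WL replicate 1 and pif47 low R:FR replicates 1 or 2.

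SAUR71 and SAUR41 fell in pif47 in low R:FR. Both belong to the SAUR41 subfamily with SAUR40 and SAUR72, and SAUR41 is known to promote hypocotyl cell expansion when overexpressed. SAUR71 had 1.17, 0.73 and 0.77 FPKM in pif47 in low R:FR, against 2.05, 2.05 and 3.61 FPKM in WL. It thus fell by 1.41 on the log2 scale (SE 0.18) in pif47, where it rose by 1.01 ± 0.18 in dvl1-1D, 1.58 ± 0.18 in bsk36 and 1.46 ± 0.18 in Col-0. The low R:FR libraries of pif47 were the lowest of all 24, and its WL libraries overlapped those of Col-0. The interaction was −2.87 ± 0.26 (limma adjusted p = 1.3e-06), and stayed between −3.07 and −2.13 under every alternative run.

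SAUR41 had 1.34, 1.39 and 1.58 FPKM in pif47 in low R:FR, against 3.33, 3.33 and 3.08 in WL. It fell by 1.13 (SE 0.19), where the other genotypes differed by 0.04 ± 0.19 (dvl1-1D), 0.25 ± 0.19 (bsk36) and 0.02 ± 0.19 (Col-0). The pif47 low R:FR values lay below every other value of this gene. The interaction was −1.15 ± 0.27 (limma adjusted p = 0.0242). This call was lost without any one of Col-0 WL replicate 2, Col-0 low R:FR replicate 2, pif47 WL replicates 1 or 2 and pif47 low R:FR replicates 1 or 2, with values from −1.13 to −0.999. The third tested member of the subfamily, SAUR72, differed by −0.41 ± 0.12 in pif47 and −0.19 ± 0.12 in Col-0, with an interaction of −0.22 ± 0.17 that was not called. Both lowered calls in pif47 depended on the pseudocount, since with 1 added in place of 0.1 SAUR71 differed by −0.90 and SAUR41 by −0.80.

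SAUR21 and SAUR63 rose less in pif47 than in Col-0. SAUR21 had 10.1, 10.6 and 7.95 FPKM in pif47 in low R:FR, against 2.45, 3.43 and 2.9 in WL, a log2 fold change of 1.67 ± 0.17, against 3.05 ± 0.17 in Col-0. Its interaction was −1.38 ± 0.24 (limma adjusted p = 0.00278). No other gene of SAUR19 to SAUR24 had a called interaction in pif47, and how reads were divided among these near-identical genes is not known. SAUR63 had 18.9, 17.8 and 22.4 FPKM in pif47 in low R:FR, against 14.8, 12.7 and 14.1 in WL (0.50 ± 0.10, against 1.16 ± 0.10 in Col-0), with an interaction of −0.66 ± 0.14 (limma adjusted p = 0.00975). In both genes the low R:FR values of pif47 lay above its WL values and below all low R:FR values of Col-0.

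SAUR68 had 0, 0.09 and 0.67 FPKM in pif47 in low R:FR, against 0.1, 0 and 0.09 in WL. In Col-0 the low R:FR values of SAUR68 were 2.79 to 3.97 FPKM. Its interaction was −3.71 ± 0.91 (limma adjusted p = 0.0308), in a gene that passed the expression limit only through low R:FR libraries of the other genotypes. The call was lost without any one of Col-0 WL replicates 1 or 2, Col-0 low R:FR replicates 1 or 2, pif47 WL replicates 1 or 3 and pif47 low R:FR replicates 1 or 2 (values from −3.80 to −3.07), and in a fit of only the groups compared. SAUR28 had 0.2, 0.63 and 0.62 FPKM in pif47 in low R:FR, against 0.81, 0.94 and 0.35 in WL (−0.48 ± 0.53). Its interaction of −2.56 ± 0.75 missed the threshold (limma adjusted p = 0.0797). SAUR15 (−1.20 ± 0.42) and SAUR10 (−1.36 ± 0.79) were not called either.

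**Figure D4:**
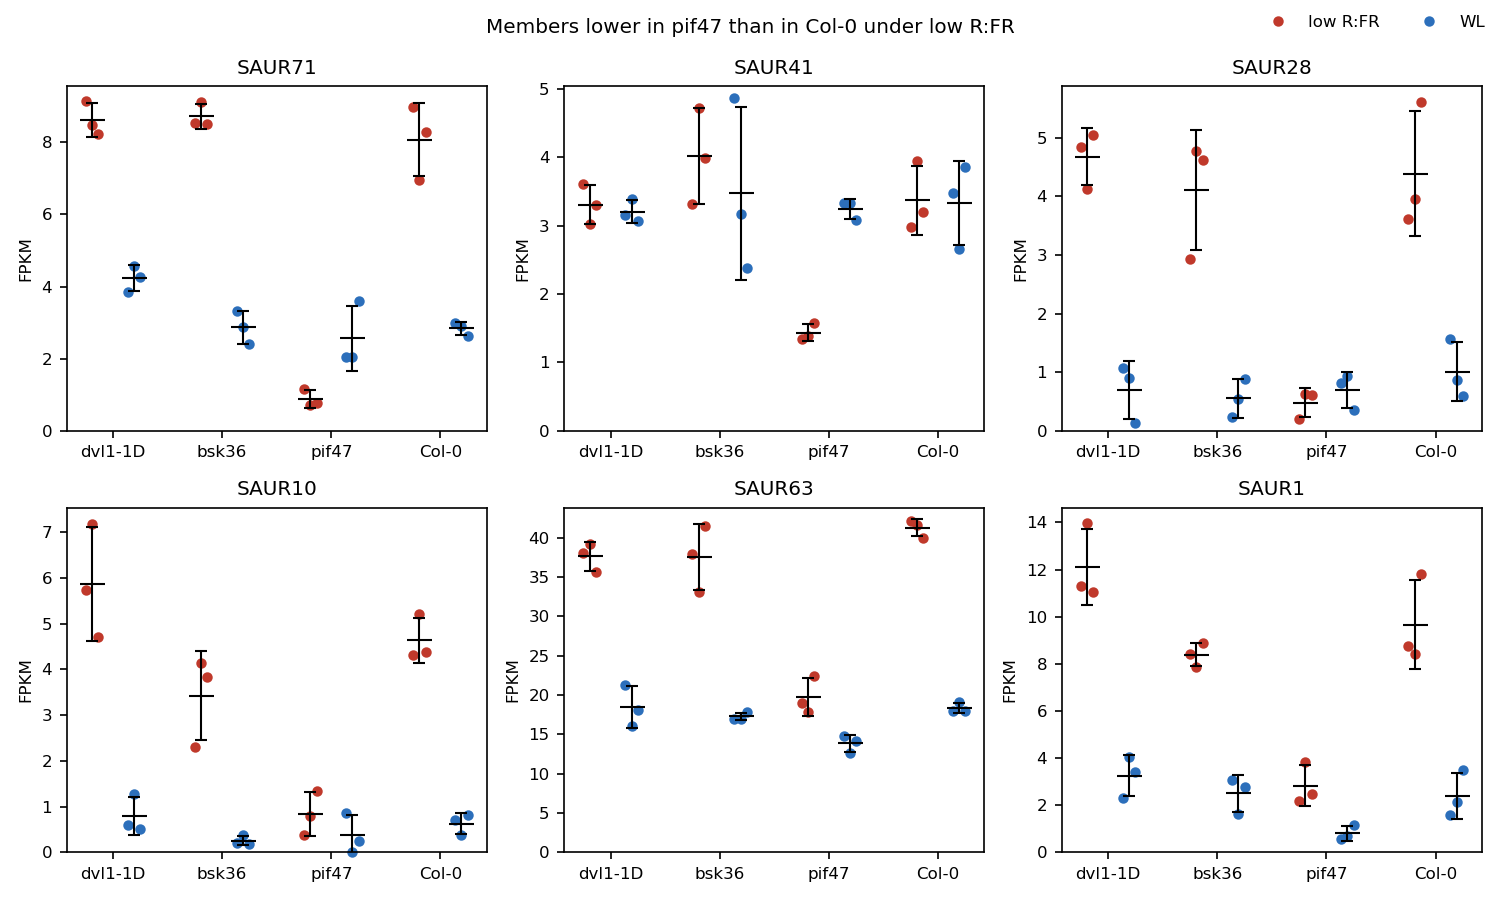
FPKM of SAUR71, SAUR41, SAUR28, SAUR10, SAUR63 and SAUR1 in each library of dvl1-1D, bsk36, pif47 and Col-0, with low R:FR in red to the left of WL in blue; the black bar is the mean and the whisker the SD of 3 replicates. SAUR71 and SAUR41 are lower in low R:FR than in WL in pif47 (0.73 to 1.17 and 1.34 to 1.58 FPKM in low R:FR), SAUR28 overlaps between lights there, and SAUR1 keeps a difference at lower levels.

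Other members kept a response in pif47 at a lower level. SAUR1 had 2.2, 3.83 and 2.46 FPKM in pif47 in low R:FR, against 0.59, 0.68 and 1.17 in WL, a log2 fold change of 1.69 ± 0.29, close to the 2.02 ± 0.29 of Col-0 (interaction −0.33, 95% interval −1.19 to 0.53). SAUR22 had 11.2, 7.82 and 9.98 FPKM in pif47 in low R:FR, against 0.08, 0.99 and 0.65 in WL (4.19 ± 0.44). The summed FPKM of SAUR19 to SAUR24 were 56.3, 50.5 and 56.8 in pif47 in low R:FR, against 9.3, 11.5 and 12.6 in WL, a 4.89-fold difference, against 8.29-fold in Col-0. The interaction of the sum was −0.76, and its 95% interval of −1.06 to −0.46 excluded 0. SAUR9 (1.53 ± 0.45) and SAUR13 (4.06 ± 0.95) were raised in pif47. SAUR9 had 0.76, 0.6 and 0.53 FPKM in low R:FR, against 0.36, 0.24 and 0 in WL, and SAUR13 had 5.09, 3.17 and 2.84 FPKM, against 0, 0.97 and 0. The SAUR9 call was lost without pif47 WL replicate 3 (0.87) or pif47 low R:FR replicate 1 (1.41), with a pseudocount of 0.5 (0.72) or 1 (0.45), and in a fit of only the groups compared. The value of SAUR13 depends on the added 0.1, since WL replicates 1 and 3 were at 0, and ranged from 1.88 to 5.20 over the alternatives.

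The level of the members in pif47 against Col-0 was lower in low R:FR for 17 of 39 (limma, adjusted p under 0.05 and at least 2-fold) and higher for none, against 1.19% and 0.914% of all tested genes. The median log2 difference of the members was −1.07, against 0.04 for all genes. All low R:FR values of pif47 lay below those of Col-0 for 28 of 39 members, against 12.5% of all genes. The 17 were SAUR68 (−3.74 ± 0.64), SAUR71 (−3.06 ± 0.18), SAUR28 (−3.03 ± 0.53), SAUR10 (−2.46 ± 0.56), SAUR19 (−1.99 ± 0.49), SAUR1 (−1.76 ± 0.29), SAUR15 (−1.75 ± 0.30), SAUR21, SAUR52, SAUR24, SAUR23, SAUR22, SAUR20, SAUR41, SAUR65, SAUR67 and SAUR63. The last 10 differed by −1.57 to −1.07. SAUR10 had 0.39, 0.79 and 1.35 FPKM in pif47 in low R:FR, against 4.32, 5.21 and 4.39 in Col-0, with no overlap.

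Some of these 17 calls lay close to the threshold. That of SAUR22 (−1.40 ± 0.44) was lost without any one Col-0 or pif47 low R:FR library (values from −1.51 to −1.26). It was also lost with all libraries kept, with no expression filter (limma adjusted p = 0.0547) or with another variance model (limma adjusted p = 0.0535). The call of SAUR52 (−1.54 ± 0.42) was lost without Col-0 low R:FR replicate 3 (−1.34) or pif47 low R:FR replicate 1 (−1.06). It was also lost with a pseudocount of 1 (−0.77) and in a fit of only the groups compared. SAUR67 (−1.09 ± 0.15) was at −0.98 without Col-0 low R:FR replicate 2, and SAUR63 (−1.07 ± 0.10) at −0.998 without pif47 low R:FR replicate 2. With a pseudocount of 1 SAUR67 was at −0.988. SAUR41 was at −0.993 with a pseudocount of 0.5 and −0.84 with 1, both below the call. In WL, SAUR1 was the only member called lower in pif47 (−1.43 ± 0.29, limma adjusted p = 0.00911, −0.88 and not called with a pseudocount of 1), against 0.131% of all tested genes called lower. An unadjusted P under 0.05 was found for 17 of 39 (43.6%), against 19.3% of all tested genes. The WL count rose to 2 without Col-0 WL replicate 2, bsk36 WL replicates 1 or 3, or pif47 WL replicates 2 or 3, and to 4 without pif47 WL replicate 1. The median log2 difference of the members in WL was −0.45, against 0.06 for all genes. SAUR20 had 3.46, 4.51 and 4.43 FPKM in pif47 in WL, against 6.62, 6.29 and 8.47 in Col-0, a log2 difference of −0.77 ± 0.13 (limma adjusted p = 0.0015) that did not reach 2-fold.

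SAUR78 and SAUR32 did not follow this pattern. SAUR78 had 76.9, 91.2 and 94.9 FPKM in pif47 in low R:FR, against 71.1, 73.4 and 60.7 in Col-0 (0.36 ± 0.12, limma adjusted p = 0.047). SAUR32 had 30.2, 26.1 and 29.0 FPKM in pif47, against 28.0, 28.8 and 25.5 in Col-0 (0.05 ± 0.08). The root marker list summed to 1610 to 1710 FPKM in pif47 in low R:FR, against 936 to 1371 in Col-0, almost all of it BGLU23, with 3 of its 4 genes overlapping between these groups. The shoot marker list summed to 31660 to 33084 FPKM in pif47 and 32263 to 36203 in Col-0 in low R:FR. Their part in the pif47 differences was not tested.

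**Figure D5:**
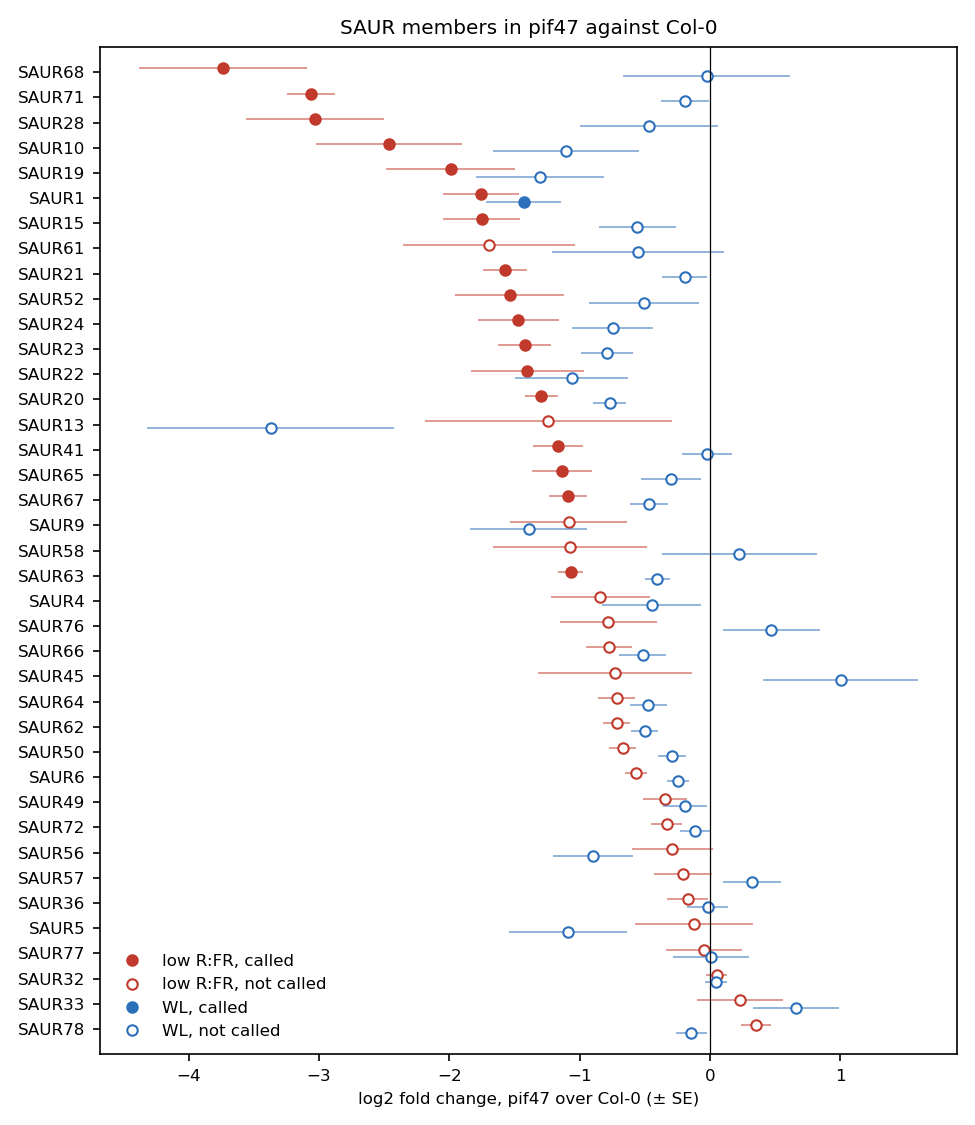
Log2 difference of pif47 over Col-0 for the 39 tested SAUR members (rows, ordered by low R:FR) in low R:FR (red) and WL (blue); points are limma estimates on log2(FPKM + 0.1), whiskers are SE, and filled points passed the call. The low R:FR points of 17 members are filled, from SAUR68 (−3.74) to SAUR63 (−1.07), and of the WL points only that of SAUR1 (−1.43).

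RefSeq names a further 31 SAUR genes that the rule did not take, of which 22 were tested. Low R:FR raised 5 of the 22 in dvl1-1D, 5 in bsk36, none in pif47 and 4 in Col-0, against 1.32%, 1.30%, 0.701% and 2.16% of all tested genes. In pif47, 6 (27.3%) had an unadjusted P under 0.05 (limma), against 31.2% of all tested genes. The 4 in Col-0 were SAUR46 (2.50), SAUR29 (1.59), SAUR27 (1.50) and SAUR7 (1.43), and SAUR54 was lowered in Col-0 (−1.03). SAUR46 had 1.41, 2.71 and 1.65 FPKM in pif47 in low R:FR, against 8.98, 8.28 and 6.67 in Col-0. SAUR27, next to SAUR28 on chromosome 3, had 1.99, 1.69 and 2.61 FPKM in pif47, against 7.37, 6.55 and 5.75 in Col-0. In both genes the interaction in pif47 was called (−1.96 and −1.43). With these genes added, the raised SAUR genes numbered 20 in dvl1-1D, 22 in bsk36, 9 in pif47 and 19 in Col-0.

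The partners of SAUR proteins were examined from lists of known genes. Of 9 PP2C.D phosphatase genes, all tested, low R:FR raised PP2C-D1 and PP2C-D7 in dvl1-1D and Col-0, PP2C-D1 in bsk36, and none in pif47, with the shares of all genes given above. In pif47, 3 of 9 had an unadjusted P under 0.05 (limma), against 31.2% of all tested genes. PP2C-D7 had 7.05, 8.17 and 8.38 FPKM in bsk36 in low R:FR, against 4.55, 4.07 and 3.3 in WL, without overlap and just under the call (0.98 ± 0.17). PP2C-D1 had 11.7, 16.1 and 18.0 FPKM in pif47 in low R:FR and 12.3, 12.2 and 11.2 in WL, against 103, 89.2 and 95.8 in low R:FR and 16.9, 15.4 and 18.2 in WL in Col-0. Its low R:FR values in pif47 were within the range of its WL values in Col-0 or below it. The interaction in pif47 was −2.17 ± 0.16 for PP2C-D1 (limma adjusted p = 9.2e-08) and −1.29 ± 0.24 for PP2C-D7 (limma adjusted p = 0.00397). The other 7 phosphatase genes were not called in any genotype.

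None of the 9 tested AHA proton pump genes, the 6 auxin receptor genes (TIR1/AFB), the 5 activating ARF genes or the 3 tested TMK receptor kinase genes was called for low R:FR in any genotype (limma). At an unadjusted P under 0.05 these were, in the order of these lists, 1, 2, 0 and 2 genes in dvl1-1D, 2, 2, 3 and 2 in bsk36, 1, 1, 1 and 3 in pif47, and 4, 1, 3 and 2 in Col-0. Of all tested genes, 30.1% in dvl1-1D, 28.6% in bsk36, 31.2% in pif47 and 45.0% in Col-0 had such a P. AFB1, an auxin receptor gene, had 23.7, 27.5 and 25.1 FPKM in Col-0 in low R:FR, against 13.5, 10.95 and 13.7 in WL, without overlap and at the edge of the call (0.999 ± 0.11). The interaction was called for AFB1 in bsk36 (−0.55 ± 0.15, limma adjusted p = 0.0491) and for AHA5 in dvl1-1D (−0.53 ± 0.14, limma adjusted p = 0.0493). No other gene of these lists had a called interaction in any mutant. Of all tested genes, 3.03% were called for bsk36 and 2.34% for dvl1-1D. Both adjusted p-values lay just under the limit of 0.05, and these calls were not re-run under the alternatives. TMK1 had 49.0, 51.3 and 49.3 FPKM in Col-0 in low R:FR, against 33.8, 31.1 and 34.0 in WL, a difference without overlap that did not reach 2-fold.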

How the data were processed

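RNA-seq libraries of whole Arabidopsis seedlings (poly(A) RNA, Illumina) were analysed from the FPKM values that the authors deposited, 1 column for each of 24 libraries. The submitters' processing notes name fastp, cutadapt, HISAT2, DESeq2 and the TAIR10 build. The counting tool, annotation and strand setting are not given in the sources used here. Of the deposited columns, 8 group means were not used, and no sample column was unmapped. FPKM keeps no read counts, so counting intervals were not computed.

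Libraries were grouped by genotype and light as labelled. limma (version 3.58.1 in R 4.3.3) was fitted to log2(FPKM + 0.1) of 20682 genes (mean FPKM 0.5 or more), as 1 model of 8 groups with a mean-variance trend, and p-values were adjusted by the Benjamini-Hochberg method over all of these genes. Fold changes are on the log2(FPKM + 0.1) scale, which understates the change of low genes. Calls for light needed 1 or more log2 units and an unadjusted P no higher than 0.01, those for the interaction an adjusted p under 0.05, and those between genotypes an adjusted p under 0.05 with 1 or more log2 units. The fit was tested on simulated data.

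Gene names not in the deposited values, biotypes and gene order came from RefSeq (TAIR10.1), which matched all 48 members. Members described with values were those called in any comparison and those with a published role. The partner and marker lists were lists of known genes. Members, lists and this rule were chosen with earlier results of these data known. SAUR6, SAUR46, SAUR27, SAUR29, SAUR7, SAUR54, AFB1, AHA5 and TMK1 fall outside the rule and were chosen after their values were seen. Alternatives were other pseudocounts, filters, scalings, variance models, a replicate block, fits of the compared groups only, the sum of SAUR19 to SAUR24, and leaving out each library.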

Additional observations from a re-analysis of the deposited data

Results flagged for a closer look

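The low R:FR effect differed between pif47 and Col-0 for 5 SAUR members, by the interaction term of limma with an adjusted p under 0.05. The difference of the log2 fold change, pif47 minus Col-0, was −2.87 for SAUR71, −1.38 for SAUR21, −0.66 for SAUR63, −1.15 for SAUR41 and −3.71 for SAUR68. Over the alternatives run it ranged from −3.07 to −2.13 for SAUR71 (highest limma adjusted p = 0.00157), from −1.61 to −1.24 for SAUR21 (highest 0.0389) and from −0.76 to −0.59 for SAUR63 (highest 0.0336). It ranged from −1.26 to −0.82 for SAUR41 (highest limma adjusted p = 0.079) and from −4.54 to −1.73 for SAUR68 (highest 0.148). SAUR68 passed the expression limit only through low R:FR libraries of the other genotypes, with a mean of 0.126 FPKM in WL, so that its difference is a description.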

How the results depend on the processing

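Results of single SAUR members that were called in the main fit were re-run under the alternatives. Of these 2774 values, 2712 kept their direction and side of the threshold, 62 lost their call and 0 changed direction. Calls gained under an alternative were not part of this tally. A change of direction was unlikely from the start, since only called results were re-run. With a pseudocount of 0.5, low R:FR lowered 1 member in pif47 in place of 2. With a pseudocount of 1 it lowered 0, the interaction in pif47 was called for 9 in place of 5, and 0 in place of 1 were called in pif47 against Col-0 in WL, as also with only the libraries compared (0). With a mean FPKM of at least 5, the construction of which leaves fewer genes, 11 members were raised in bsk36, 0 lowered in pif47, 2 called in the pif47 interaction and 10 in pif47 against Col-0 in low R:FR. With SAUR19 to SAUR24 summed into 1 feature, 4 features were raised in pif47. With the other RefSeq SAUR genes added, an alternative chosen after seeing the data, 1 gene was lowered in Col-0. Except for these through construction, the cause was not tested.

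Leaving out 1 library at a time gave 14 to 16 raised members in dvl1-1D, 16 to 18 in bsk36, 9 to 10 in pif47 and 14 to 16 in Col-0, and 2 lowered in pif47 and 0 elsewhere. The interaction was called for 3 to 6 in pif47 and 0 in the other mutants. Against Col-0 the calls were 15 to 18 for pif47 in low R:FR, 1 to 4 for pif47 in WL, 0 to 1 for dvl1-1D in WL and 0 in the other comparisons.

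The replicate number as a block moved no count by over 1.5 times, with 15 raised in dvl1-1D, 17 in bsk36, 9 in pif47 and 15 in Col-0, and 5 interactions in pif47. Deviations of libraries with the same number had correlations of −0.143 to 0.103 (median 0.00589, 84 pairs), and 10 of 24 libraries correlated best with their own number. No strong effect shared by a replicate number was thus seen. Whether samples with the same number were prepared together cannot be told from this, and the labels do not say. FPKM values carry no read depth, and members below about 1 FPKM have wide intervals.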
